A study of Mus musculus with 15 samples.

Results

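The Ms4a genes are a family of neighbouring genes on mouse chromosome 19 that encode small proteins crossing the plasma membrane several times. They are expressed mostly in immune cells, where members have been found beside Fc receptors, pattern recognition receptors and costimulatory receptors. *Ms4a7* is widely used as a marker of macrophages at the borders of the brain, and the human MS4A region is known for its association with Alzheimer's disease risk and with the level of soluble TREM2. The 8 genes described here are *Ms4a4a*, *Ms4a4b*, *Ms4a4c*, *Ms4a6b*, *Ms4a6c*, *Ms4a6d*, *Ms4a7* and *Ms4a14*, taken by name from the 38924 genes of the tables. Rows carried the names of 6 of the 8. No row carried the name *Ms4a4a* or *Ms4a14*, and these 2 genes are not analysed here. All 6 measured members had at least 1 cpm (counts scaled to a common library size) in at least 2 libraries, as did 14967 genes in all.

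The libraries came from brain myeloid cells of wild-type C57BL/6J (B6) male mice killed at 12 months of age. WD-fed mice had received a western diet (WD) since 2 months of age, a feed rich in fat and with added corn syrup that induces obesity, and CD-fed mice had received a control chow diet (CD). Cells positive for CD11b, the integrin chain common to myeloid cells, and negative for the T cell protein CD3e were sorted by FACS into those with a high (CD45hi) and those with a low (CD45lo) level of the leukocyte protein CD45. Microglia, the resident macrophages of the brain, are known to carry little CD45, and other leukocytes carry more. There were 4 libraries of CD45hi and 4 of CD45lo cells from CD-fed mice, and 3 of CD45hi and 4 of CD45lo cells from WD-fed mice. All groups thus share genotype, strain, sex and age, and differ in diet and in the sort gate. The gate is a cut on a continuous protein level, so that each library can hold a mixture of cells.

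Poly(A) RNA was sequenced, and the values are expected counts, the number of reads estimated for each gene when reads that match several genes are divided between them. The total was 11951412 to 17912272 per library (median 15100700). Levels are given as cpm after TMM normalization, and the floor of 3 counts per library lay at 0.16 to 0.28 cpm, which covers counting error only. All 10 listed markers of microglia were called lower (Benjamini-Hochberg FDR under 0.05) in CD45hi cells on the CD and 7 of the 10 on the WD. All 10 had counts in the CD45hi groups, with a sum of 7766 to 9366 cpm on the CD, against 19200 to 20450 cpm in CD45lo libraries. The labels do not tie libraries to animals, so the p-values below measure the spread between these libraries.

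The 8 genes lie between positions 11301249 and 11604849 of chromosome 19 in the mouse genome build mm10 (GENCODE M21), within a cluster of 35 annotated genes that spans 678559 bases. *Ms4a7* (ENSMUSG00000024672) occupies 11321039 to 11336146 on the minus strand. *Ms4a4c* (ENSMUSG00000024675, 11404770 to 11427246) and *Ms4a4b* (ENSMUSG00000056290, 11443553 to 11467055) follow on the plus strand. Next on the plus strand are *Ms4a6c* (ENSMUSG00000079419, 11469366 to 11482192) and *Ms4a6b* (ENSMUSG00000024677, 11516512 to 11531256), and *Ms4a6d* (ENSMUSG00000024679, 11586604 to 11604849) lies on the minus strand. All 6 are annotated as protein coding. Some members are similar copies. The coding sequences of *Ms4a4b* and *Ms4a4c* were 91.7% identical, those of *Ms4a6b* and *Ms4a6d* 80.1%, and those of *Ms4a6b* and *Ms4a6c* 74.7%. The coding sequence of *Ms4a7* was at most 51.9% identical to that of any other member.

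The similarity reached the promoters, which are shown because copies with like promoters had unlike levels in the sorted cells. RefSeq promoters (GRCm38.p6) were given for 7 of the 8 members, all but *Ms4a6d*, and *Ms4a7* had 2 of the 8 entries. The starts used here are those of RefSeq, and for *Ms4a4c* and *Ms4a6b* they lie inside the gene as GENCODE places it, downstream of the first positions given above. The 250 bases before the RefSeq starts of *Ms4a4b* and *Ms4a4c* are printed first, 5′ to 3′ on the strand of the gene, with capitals for every exact run of at least 12 bases that the other gene of the pair also holds.
Ms4a4b, chr19:11443308-11443557, plus strand: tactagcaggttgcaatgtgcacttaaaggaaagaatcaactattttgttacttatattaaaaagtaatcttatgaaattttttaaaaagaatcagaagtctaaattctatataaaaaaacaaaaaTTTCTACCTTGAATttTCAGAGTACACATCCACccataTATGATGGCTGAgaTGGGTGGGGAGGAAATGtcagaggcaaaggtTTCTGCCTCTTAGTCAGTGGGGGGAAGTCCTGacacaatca
Ms4a4c, chr19:11407411-11407660, plus strand: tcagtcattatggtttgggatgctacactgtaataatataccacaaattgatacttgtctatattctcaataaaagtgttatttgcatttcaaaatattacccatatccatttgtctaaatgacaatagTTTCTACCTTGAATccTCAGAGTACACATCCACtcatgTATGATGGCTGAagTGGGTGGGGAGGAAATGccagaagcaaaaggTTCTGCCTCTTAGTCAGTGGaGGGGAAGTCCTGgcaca
Both hold 92 bases in such runs, the longest of 20 bases, gathered in the part nearest the RefSeq start.
The next pair is *Ms4a6b* and *Ms4a6c*, marked in the same way.
Ms4a6b, chr19:11518309-11518558, plus strand: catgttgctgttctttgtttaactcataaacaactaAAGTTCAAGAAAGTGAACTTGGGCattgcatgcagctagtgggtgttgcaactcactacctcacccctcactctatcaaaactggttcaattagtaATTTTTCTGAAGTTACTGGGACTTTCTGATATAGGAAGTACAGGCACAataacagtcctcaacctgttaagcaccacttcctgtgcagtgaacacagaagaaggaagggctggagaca
Ms4a6c, chr19:11469118-11469367, plus strand: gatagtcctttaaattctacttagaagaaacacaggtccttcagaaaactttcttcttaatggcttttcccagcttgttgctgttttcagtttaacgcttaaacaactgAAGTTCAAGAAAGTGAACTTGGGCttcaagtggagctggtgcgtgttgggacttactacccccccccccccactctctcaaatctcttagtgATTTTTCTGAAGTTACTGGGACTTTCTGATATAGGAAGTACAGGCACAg
Both hold 72 bases in shared runs, the longest of 48 bases, which ends just before the RefSeq start of *Ms4a6c* and lies further from that of *Ms4a6b*. The promoter of *Ms4a7*, shown because the gene was called between the sorted cells on both diets, shared no run of more than 9 bases with another member and has no capitals.
Ms4a7, chr19:11336147-11336396, minus strand: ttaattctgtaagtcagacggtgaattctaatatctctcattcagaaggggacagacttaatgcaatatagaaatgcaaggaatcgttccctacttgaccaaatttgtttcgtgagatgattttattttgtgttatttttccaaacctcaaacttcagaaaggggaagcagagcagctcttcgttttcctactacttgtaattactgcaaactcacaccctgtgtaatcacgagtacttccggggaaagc
A search of the whole 300-base promoters on both strands for the letters GAGGAAGT, a form of the site of the myeloid factor PU.1, found it in 0 of the 8 entries and in 3.2% of the 32851 promoters of the table. A pair of GAAA repeats with any 2 bases between them, a form of the interferon response element, was in 0 of the 8 and in 3.44% of all. These shares say only whether the letters occur in the window.

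Expected counts that are not whole show that reads were divided by estimate. The expected count of *Ms4a6c* was not whole, at the 2 decimals given, in all 15 libraries, that of *Ms4a6b* in 12, those of *Ms4a4b* and *Ms4a4c* in 8 each, that of *Ms4a6d* in 7 and that of *Ms4a7* in 1. Of the 75-base stretches in the annotated transcripts, the length of a read, 3.78% of those of *Ms4a4c* and 1.18% of those of *Ms4a4b* occur also in another gene. For *Ms4a6b* it was 0.632%, for *Ms4a6d* 0.408% and for *Ms4a7* 0. For *Ms4a6c* it was 47.7%, all of it in a transcript named BE692007 that overlaps 12027 bases of the gene on the opposite strand. No row carried the gene ID of that transcript, and whether reads were divided with it was not tested. Whether counting used the strand is not given in the sources used here, so reads from the shared stretches of *Ms4a6c* and of that transcript cannot be told apart. Other genes shared little with *Ms4a6c*, 1.11% with *Ms4a6b* and 1.77% with *Prdm11*.

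CD45hi and CD45lo cells were first compared in CD-fed mice, with edgeR's glmTreat, which tests for a difference of more than 1.5-fold. *Ms4a7*, *Ms4a4c* and *Ms4a6c* were higher in CD45hi cells, so 3 of the 6 measured members were called, against 3.39% of all genes tested that were called higher. *Ms4a6b*, *Ms4a4b* and *Ms4a6d* did not pass. In 5 of the 6 members every CD45hi library was above every CD45lo library in cpm, against 8.25% of all genes. The median log2 fold change of the 6 was 2.66, and that of all genes tested was 0.04. In sorted cells measured in bulk, fewer cells of a type and less RNA per cell cannot be told apart.

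In WD-fed mice the same 3 genes and *Ms4a6b* were higher in CD45hi cells. These are 4 of the 6 measured members, against 4.01% of all genes tested that were called higher. Again every CD45hi library was above every CD45lo library in cpm in 5 of the 6, against 10% of all genes. The median log2 fold change was 3.01 over the members and 0.00 over all genes.

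*Ms4a7*, which marks tissue macrophages and is little expressed by microglia, had the largest log2 fold changes of the 6 on each diet with all 15 libraries. This order was not stable, since *Ms4a4b* was above it without replicate 2 of the CD CD45lo libraries on the CD (5.1 against 4.28) and, with *Ms4a4c*, without replicate 1 of the WD CD45lo libraries on the WD (3.84 and 3.69 against 3.47). In CD-fed mice the CD45hi libraries were at 168, 183, 131 and 94.1 cpm and the CD45lo libraries at 2.53, 6.90, 8.05 and 11.2 cpm. In WD-fed mice the CD45hi libraries were at 64.6, 162 and 124 cpm and the CD45lo libraries at 2.82, 7.64, 18.8 and 5.15 cpm. The CD45hi and CD45lo libraries were far apart on both diets, although replicate 1 of the WD CD45hi libraries was the lowest of the CD45hi libraries and replicate 3 of the WD CD45lo libraries the highest of the CD45lo ones. The log2 fold change was 4.32 on the CD (SE 0.566, edgeR glmTreat FDR = 0.000169) and 3.76 on the WD (SE 0.567, edgeR glmTreat FDR = 0.000736), or 20-fold and 13.6-fold. Without replicate 3 of the WD CD45lo libraries the latter was 4.49 on the log2 scale (edgeR glmTreat FDR = 0.000182).

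**Figure D1:**
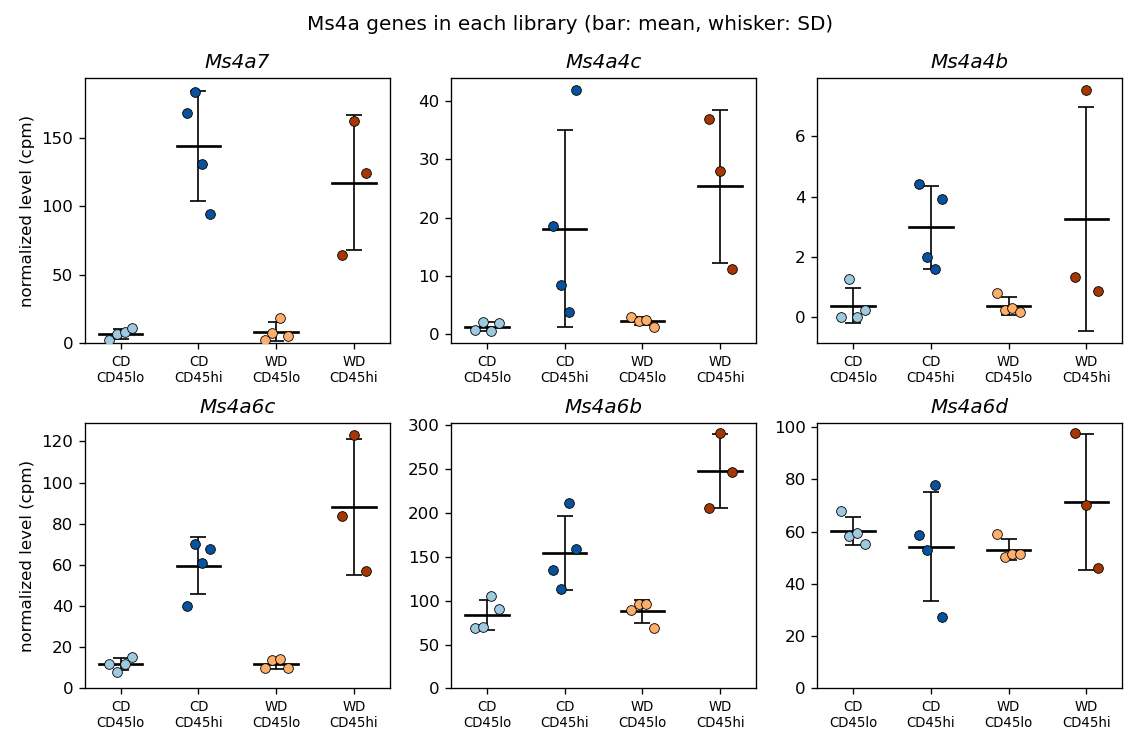
Normalized level in cpm of the 6 measured Ms4a genes, 1 panel a gene, with 1 point for each library, a bar for the group mean and whiskers for the SD (n = 4, and n = 3 for WD CD45hi). In every panel but that of Ms4a6d the dark CD45hi points lie above the light CD45lo points on both diets.

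The pair *Ms4a4c* and *Ms4a4b* showed like differences at very unlike levels. *Ms4a4c* is known from monocytes and activated lymphocytes, where interferon induces it. In CD-fed mice its CD45hi libraries were at 18.5, 8.36, 3.78 and 41.8 cpm and its CD45lo libraries at 0.706, 1.97, 0.43 and 1.92 cpm. In WD-fed mice the CD45hi libraries were at 36.9, 27.9 and 11.1 cpm and the CD45lo libraries at 2.95, 2.23, 2.42 and 1.21 cpm. The groups did not overlap, but the 4 CD CD45hi libraries spread widely. The log2 fold change was 3.84 on the CD (SE 0.779, edgeR glmTreat FDR = 0.00876) and 3.52 on the WD (SE 0.789, edgeR glmTreat FDR = 0.0165). The first was 3.01 without replicate 4 of the CD CD45hi libraries (edgeR glmTreat FDR = 0.0349). The second did not pass without replicate 3 (3.57, edgeR glmTreat FDR = 0.0509) or replicate 4 (3.32, edgeR glmTreat FDR = 0.058) of the WD CD45lo libraries. By limma-voom neither passed (3.67 and 3.37, limma treat FDR = 0.0763 and 0.069).

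*Ms4a4b*, a gene best known from T cells, where its protein associates with the costimulatory receptor GITR (*Tnfrsf18*), was the least abundant of the 6. Its CD45hi libraries were at 4.41, 1.99, 1.58 and 3.9 cpm on the CD and at 1.33, 7.53 and 0.846 cpm on the WD. Its CD45lo libraries were at 0, 1.25, 0 and 0.234 cpm on the CD and at 0.792, 0.223, 0.275 and 0.152 cpm on the WD, and 2 of the 4 in each group had more than 3 counts. CD45hi libraries were above CD45lo libraries in cpm on each diet without overlap. In TPM, which is scaled by transcript length, they overlapped on the WD, at 0.65 to 12.4 in CD45hi and 0.39 to 2.39 in CD45lo. The log2 fold changes of 2.98 on the CD (SE 1.34, edgeR glmTreat FDR = 0.34) and 3.14 on the WD (SE 1.41, edgeR glmTreat FDR = 0.262) did not pass, with standard errors more than 1.5 times those of *Ms4a4c*. Single libraries moved both values, to 5.1 on the CD without replicate 2 of the CD CD45lo libraries (edgeR glmTreat FDR = 0.121) and to 1.56 on the WD without replicate 2 of the WD CD45hi libraries (edgeR glmTreat FDR = 0.654).

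The 3 Ms4a6 copies gave 3 different patterns in the same libraries. *Ms4a6c*, known from monocytes and macrophages, was at 39.9, 70.0, 60.9 and 67.9 cpm in CD45hi and 12.0, 8.11, 11.8 and 15.3 cpm in CD45lo libraries on the CD. On the WD it was at 84.0, 123 and 57.1 cpm in CD45hi and 9.76, 13.7, 14.3 and 10.01 cpm in CD45lo libraries. The groups were far apart, and the CD45lo libraries of the diets covered like ranges. The log2 fold change was 2.34 on the CD (SE 0.325, edgeR glmTreat FDR = 0.000705) and 2.88 on the WD (SE 0.344, edgeR glmTreat FDR = 0.000116). It was past the threshold without any one of the 15 libraries on each diet.

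*Ms4a6b*, expressed in myeloid cells and in T cells, was abundant in both kinds of cell. Its CD45hi libraries were at 135, 114, 212 and 158 cpm on the CD and at 206, 291 and 247 cpm on the WD. Its CD45lo libraries were at 69.1, 69.9, 105 and 90.6 cpm on the CD and at 89.9, 96.1, 96.2 and 68.7 cpm on the WD. In cpm the lowest CD45hi library lay just above the highest CD45lo library on the CD, and the gap was wide on the WD. In TPM the libraries overlapped on the CD, at 77.5 to 133.7 in CD45hi and 61.4 to 93.9 in CD45lo. The log2 fold change of 1.5 on the WD passed (SE 0.23, edgeR glmTreat FDR = 0.0048), and that of 0.89 on the CD did not (SE 0.216, edgeR glmTreat FDR = 0.249). A test for any difference, without the 1.5-fold threshold, called the latter (edgeR glmQLFTest FDR = 0.0151). The change of the difference between the diets was 0.61 (SE 0.314) and did not pass (edgeR glmQLFTest FDR = 0.542), so the diets were not shown to differ in it.

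*Ms4a6d*, whose protein was described beside the macrophage receptor VSIG4, had overlapping cpm in both kinds of cell. On the CD its CD45hi libraries were at 58.8, 53.1, 77.9 and 27.3 cpm and its CD45lo libraries at 68.0, 58.2, 59.6 and 55.3 cpm. On the WD the CD45hi libraries were at 97.9, 70.4 and 45.9 cpm and the CD45lo libraries at 59.0, 50.2, 51.4 and 51.6 cpm. The libraries overlapped on both diets, and the CD45hi libraries were the more scattered. The log2 fold change was -0.15 on the CD (95% interval -0.72 to 0.42, edgeR glmTreat FDR = 1) and 0.43 on the WD (95% interval -0.19 to 1.04, edgeR glmTreat FDR = 0.818). The scaling mattered here, as in TPM on the CD every CD45hi library, at 27.5 to 86.3 TPM, was below every CD45lo library, at 88.2 to 106 TPM, while on the WD the TPM overlapped.

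**Figure D2:**
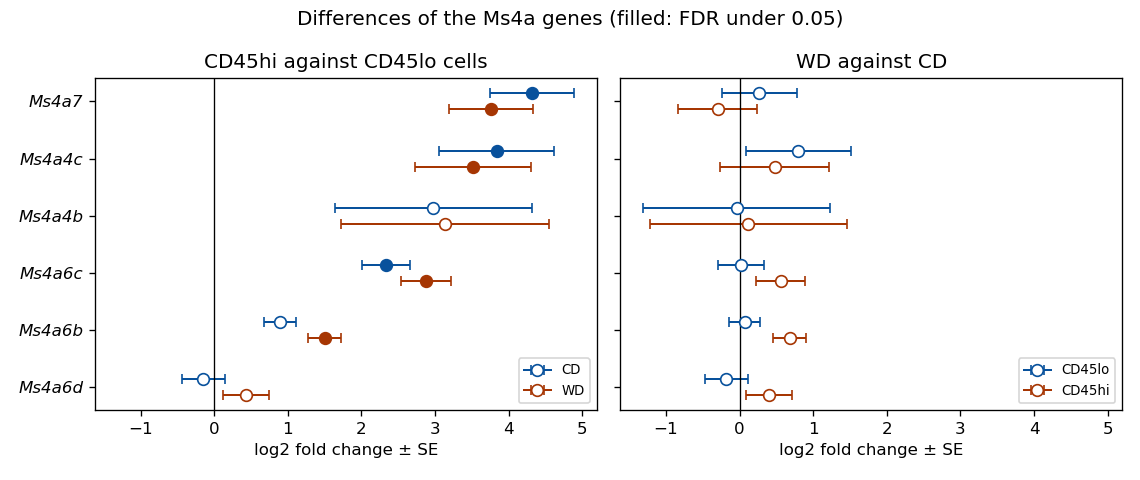
Log2 fold change with its SE for each measured member, at left CD45hi against CD45lo cells on each diet and at right WD against CD in each kind of cell, with filled points where the FDR was under 0.05. At left the points run from 4.32 for Ms4a7 down to -0.15 for Ms4a6d on the CD, and at right no point is filled.

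Diet was then compared within each kind of cell, with edgeR's glmQLFTest, which tests for any difference. None of the 6 measured members was called in CD45hi cells, where 0.254% of all genes were called, and 1 member had an unadjusted p under 0.05, as had 17.6% of all genes. This was *Ms4a6b*, with 155 ± 42 cpm on the CD (SD, n = 4) and 248 ± 42.4 cpm on the WD (SD, n = 3). Its log2 fold change was 0.68 (SE 0.229, 95% interval 0.23 to 1.13, edgeR glmQLFTest FDR = 0.151), and the libraries overlapped. The intervals of *Ms4a6c* (0.56, from -0.09 to 1.21), *Ms4a6d* (0.40, from -0.22 to 1.01), *Ms4a4c* (0.48, from -0.97 to 1.94), *Ms4a7* (-0.30, from -1.34 to 0.75) and *Ms4a4b* (0.12, from -2.51 to 2.74) all held 0.

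In CD45lo cells 0 of the 6 members and 0% of all genes were called by edgeR, and 0 members had an unadjusted p under 0.05, against 0.822% of all genes. DESeq2 and limma-voom also called 0 of the 6 in each kind of cell. The log2 fold changes ran from -0.18 for *Ms4a6d* (95% interval -0.76 to 0.39) to 0.80 for *Ms4a4c* (95% interval -0.60 to 2.2). The intervals of *Ms4a6b* (0.07, from -0.35 to 0.49) and *Ms4a6c* (0.02, from -0.59 to 0.63) were narrow, and that of *Ms4a4b* (-0.04, from -2.53 to 2.44) was wide. The test of whether diet altered the difference between CD45hi and CD45lo cells called 0 of the 6 members and 0.00668% of all genes, and 0 members had an unadjusted p under 0.05, against 10.1% of all genes. DESeq2 and limma-voom called 0 of the 6 as well. Both diet comparisons and this test use the same libraries as the comparisons of the sorted cells.

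Levels of different genes were compared in TPM, a unit that is scaled by transcript length. In CD45lo cells *Ms4a6d* led with 94.3 ± 8.02 TPM on the CD and 86.3 ± 13.8 TPM on the WD (SD, n = 4 each), and *Ms4a6b* followed with 78.6 ± 15.5 and 77.8 ± 14.8 TPM. Libraries of these 2 genes overlapped, and they lay above all other members. *Ms4a6c* and *Ms4a7* came next at 13.4 ± 3.71 and 12.4 ± 8.37 TPM on the CD, overlapping each other. *Ms4a4c* (1.88 ± 1.10 TPM) and *Ms4a4b* (0.648 ± 1.12 TPM) were lowest.

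In CD45hi cells the order was another one. On the CD *Ms4a7* led with 161 ± 44.8 TPM (SD, n = 4), ahead of *Ms4a6b* (98.4 ± 24.7), *Ms4a6d* (62.6 ± 25.2), *Ms4a6c* (48.9 ± 11.9), *Ms4a4c* (19.4 ± 15.6) and *Ms4a4b* (4.41 ± 1.80 TPM). On the WD *Ms4a6b* led with 142 ± 22.2 TPM (SD, n = 3), ahead of *Ms4a7* with 99.6 ± 45.02 TPM. Neighbours in either order overlapped, so these orders are those of the means.

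Summed over the 16 Ms4a genes with a row, the level was 406 ± 51.8 TPM in CD45hi and 202 ± 20.5 TPM in CD45lo cells on the CD (SD, n = 4 each), and 434 ± 49.7 (n = 3) and 198 ± 30.9 TPM (n = 4) on the WD. *Ms4a6b* and *Ms4a6d* made up 38.6% and 47.1% of this sum in CD CD45lo cells, and *Ms4a7* 5.90%. In CD CD45hi cells *Ms4a7* made up 39.1%, from 31.6% to 47.8% over the libraries, and *Ms4a6d* 15.1%. In WD CD45hi cells the share of *Ms4a7* was 22.8%, from 11.7% to 30.3%, and that of *Ms4a6b* 33.2%.

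**Figure D3:**
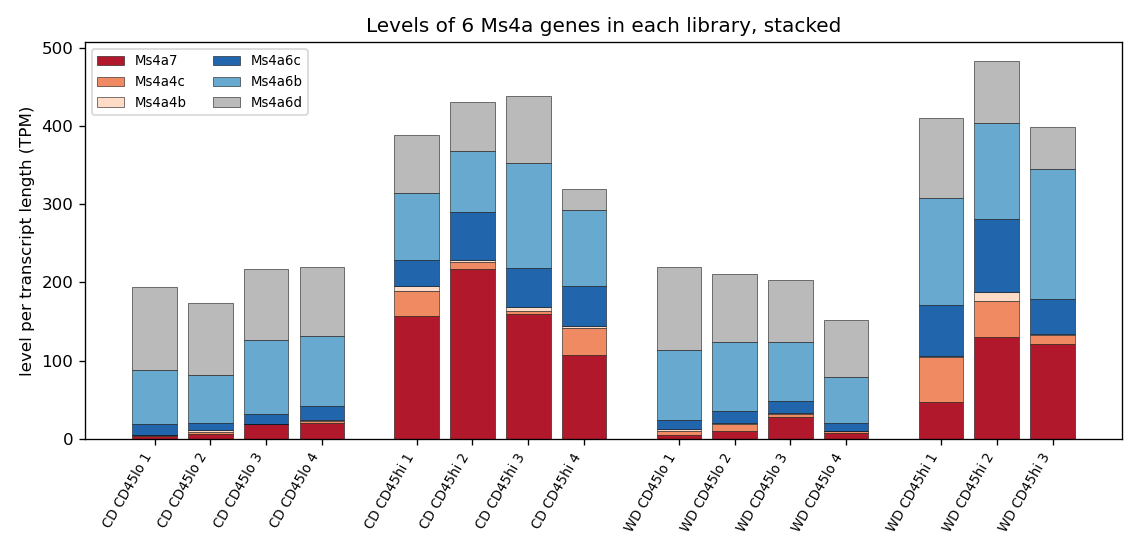
Level in TPM of the 6 measured Ms4a genes stacked for each library, grouped by diet and CD45 level. CD45lo bars consist mostly of Ms4a6b and Ms4a6d, and CD45hi bars are taller with a large part of Ms4a7, smallest in replicate 1 of WD CD45hi.

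The members did not follow each other alike across the 15 libraries. Over log2 cpm, Pearson's r was 0.923 between *Ms4a6c* and *Ms4a7*, 0.898 between *Ms4a6b* and *Ms4a6c*, and 0.871 between *Ms4a4b* and *Ms4a4c*. *Ms4a6d* had r from -0.09 to 0.16 with the other 5. The points share the groups, depth and cell makeup of the libraries, and among the 7 CD45hi libraries, as deviations from their group means, r was 0.03 between *Ms4a6c* and *Ms4a7*, 0.21 between *Ms4a6b* and *Ms4a6c* and 0.56 between *Ms4a4b* and *Ms4a4c*. The 3 genes most like *Ms4a7* over the 15 libraries were *Msr1*, a scavenger receptor of macrophages (r = 0.971), *Igf1*, a growth factor (r = 0.97), and *Apoe*, a lipoprotein component (r = 0.968). For *Ms4a6c* they were the mitochondrial *mt-Co1* (0.982), the ribosomal pseudogene *Rps6-ps4* (0.98) and the class II gene *H2-Eb1* (0.973). For *Ms4a6b* they were the class I gene *H2-Q6* (0.946), the ribosomal *Rpl30* (0.933) and *B2m* (0.927), the light chain of class I. Those of *Ms4a4c* included *Milr1* (0.954) and *Sulf2* (0.943). For *Ms4a4b* they were the complement receptor *C5ar1* (0.919), *Lmnb1* (0.893) and *Myadm* (0.886), and for *Ms4a6d* they were the RNA sensor gene *Ddx58* (0.917), *Fbxo38* (0.915) and *Armcx2* (0.914).

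Genes of proteins that work with Ms4a proteins or resemble them were taken as 2 lists. Of the 8 partner genes, 1 was called higher in CD45hi cells on each diet and none lower. This was *Clec7a*, the beta-glucan receptor dectin-1, at 102 to 153 cpm in CD45hi and 8.61 to 17.8 cpm in CD45lo libraries on the CD. Its log2 fold change was 3.20 on the CD (SE 0.309, edgeR glmTreat FDR = 1.07e-05) and 3.18 on the WD (SE 0.319, edgeR glmTreat FDR = 1.75e-05). *Trem2*, the lipid receptor whose soluble form is linked to the human MS4A region, did not pass in either, with log2 fold changes of -0.49 on the CD (SE 0.189, edgeR glmTreat FDR = 0.91) and -0.85 on the WD (SE 0.208, edgeR glmTreat FDR = 0.226). The test for any difference called it on the WD (edgeR glmQLFTest FDR = 0.014), where every CD45hi library was below every CD45lo library. *Tyrobp*, *Fcer1g*, *Vsig4*, *Tnfrsf18*, *Adam10* and *Adam17* were not called. The test for any difference called *Tyrobp*, an adaptor of TREM2, higher on the WD (edgeR glmQLFTest FDR = 0.00226) and on the CD (edgeR glmQLFTest FDR = 0.0492), and *Adam10*, a sheddase of TREM2, lower on the CD (edgeR glmQLFTest FDR = 0.0202). On the CD the *Tyrobp* libraries overlapped, at 516 to 910 cpm in CD45hi and 427 to 523 cpm in CD45lo. In TPM its CD means were alike, at 2294 in CD45hi and 2257 in CD45lo. The MS4A-like genes *Tmem176a* and *Tmem176b* were not called either, with log2 fold changes of 0.90 to 1.14. The test for any difference called *Tmem176b* on the CD (edgeR glmQLFTest FDR = 0.0303) and on the WD (edgeR glmQLFTest FDR = 0.00927), with every CD45hi library above every CD45lo library in cpm on each diet. In TPM its libraries overlapped on both diets, at 215 to 429 and 197 to 252 on the CD and 182 to 315 and 159 to 220 on the WD. None of these 10 genes was called between diets.

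Markers of several cell types moved with the members between CD45hi and CD45lo cells, and their part in the results was not tested. Of the 8 markers of border-associated macrophages 7 were called higher in CD45hi cells on each diet. Their summed level was 2456 to 2758 cpm in CD CD45hi, 362 to 538 cpm in CD CD45lo, 1100 to 3405 cpm in WD CD45hi and 351 to 453 cpm in WD CD45lo libraries. *Mrc1*, the mannose receptor and the most abundant of them, was at 456 to 1912 cpm in WD CD45hi libraries. Replicate 1 of that group was lowest both in this sum and in *Ms4a7*, and without it the log2 fold change of *Ms4a7* on the WD was 4.05 (edgeR glmTreat FDR = 0.000669). The CD CD45hi libraries did not match in this way. Replicate 4, at 2740 cpm of markers, had the lowest *Ms4a7* of that group (94.1 cpm), and replicate 2, at 2591 cpm, the highest (183 cpm).

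All 7 markers of patrolling monocytes were called higher on each diet. They summed to 420 to 740 cpm in CD CD45hi, 11.7 to 26.6 cpm in CD CD45lo, 601 to 1061 cpm in WD CD45hi and 12.0 to 24.0 cpm in WD CD45lo libraries, led by the integrin *Itgal*. Replicate 3 of CD CD45hi was lowest of the CD45hi libraries in this sum, in that of classical monocyte markers (398 cpm) and in *Ms4a4c*. The highest libraries did not match. Replicate 2 of WD CD45hi led in the patrolling sum, at 1061 cpm, with 27.9 cpm of *Ms4a4c*. Replicate 4 of CD CD45hi, at a sum of 740 cpm, had 41.8 cpm. Of the 6 measured markers of classical monocytes 4 were called higher on the CD and 2 on the WD. They summed to 398 to 1009 and 36.7 to 97.3 cpm in CD45hi and CD45lo libraries on the CD, and to 415 to 556 and 28.4 to 136 cpm on the WD, led by the chemokine receptor *Ccr2*. Of the 8 neutrophil markers 6 were called higher on each diet, with sums of 1676 to 3544 and 578 to 855 cpm on the CD and 1409 to 1842 and 639 to 847 cpm on the WD, led by *Csf3r*. Of the 7 dendritic cell markers 2 were called higher on each diet, with sums of 173 to 320 and 19.4 to 36.9 cpm on the CD and 156 to 291 and 23.3 to 32.3 cpm on the WD, led by *Cd209a*.

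**Figure D4:**
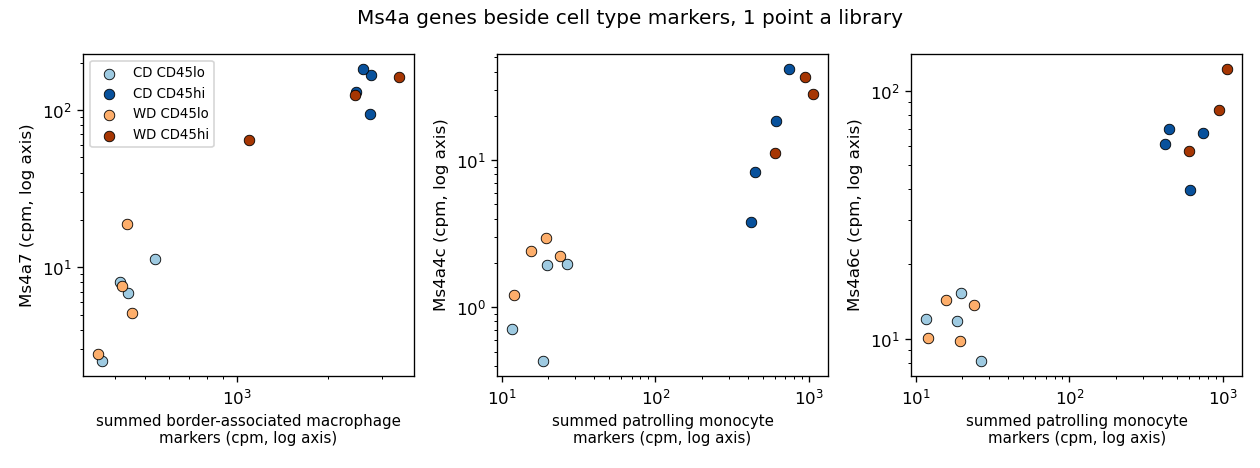
Level of Ms4a7, Ms4a4c and Ms4a6c in cpm against the summed cpm of the markers of border-associated macrophages or patrolling monocytes, both on log axes, with 1 point for each of the 15 libraries. CD45hi and CD45lo libraries form separate clusters in each panel, and replicate 1 of WD CD45hi stands between them in the first, at 1100 cpm of markers and 64.6 cpm of Ms4a7.

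Most listed genes of T cells, in which *Ms4a4b* and *Ms4a6b* are also known, were sparse. Of the 10 T cell markers 3 passed the filter on low counts and 1 was called higher on each diet, with sums of 13.3 to 83.8 cpm in CD CD45hi, 1.61 to 8.39 cpm in CD CD45lo, 5.08 to 45.7 cpm in WD CD45hi and 1.31 to 12.2 cpm in WD CD45lo libraries. The most abundant was *Cd4*, which macrophages can also express, at up to 79.4 cpm. The sort gate left out cells with CD3e on their surface. Of the T cell receptor complex, *Trbc2* was at 0 in all 15 libraries, *Cd3e* and *Trac* were above 0 in 1 library each at no more than 0.257 cpm, and *Cd3d* reached 0.745 cpm. The other listed chains reached more, as *Cd3g*, at 0 in 14 libraries, reached 4.13 cpm, and *Cd247*, at 0 in 4, reached 9.77 cpm. Of the 7 NK cell markers 2 were called higher on the CD and 3 on the WD, with sums of 15.8 to 57.1 and 36.9 to 184 cpm in CD45hi and at most 4.47 cpm in CD45lo libraries, led by *Gzma*. Of the 5 tested of 6 B cell markers 0 were called higher on the CD and 1 on the WD, with sums of 279 to 493 cpm in CD CD45hi and 322 to 366 cpm in CD CD45lo, 239 to 421 cpm in WD CD45hi and 270 to 383 cpm in WD CD45lo libraries, led by *Ighm*. Markers of other brain cells, led by *Aqp4*, summed to at most 74.9 cpm, and of the 7 tested 1 was called lower in CD45hi cells on the CD.

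The other Ms4a genes of the cluster were scarce. Rows carried the names of 10 more, of which 4 were at 0 in every library and 3 passed the filter on low counts. None of these 3 was called in any comparison. *Ms4a1*, which encodes the B cell antigen CD20, was at 0 to 9.11 cpm in CD CD45hi libraries and at 0.613 to 11.1 cpm in WD CD45hi libraries, and at no more than 0.0567 cpm in CD45lo libraries. *Ms4a3*, a gene of granulocyte and monocyte progenitors, reached 9.69 cpm in 1 CD CD45hi library and was at 0 in the WD CD45hi libraries, and *Ms4a8a* reached 15.5 cpm in 1 CD CD45hi library. On the WD all 3 CD45hi libraries of *Ms4a1* had counts and all 4 CD45lo libraries were at 0, and the test for any difference called it (edgeR glmQLFTest FDR = 0.0446, edgeR glmTreat FDR = 0.0666). All other Ms4a genes with a row together made up 0.51% to 2.94% of the summed TPM in the means of the groups.

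**Figure D5:**
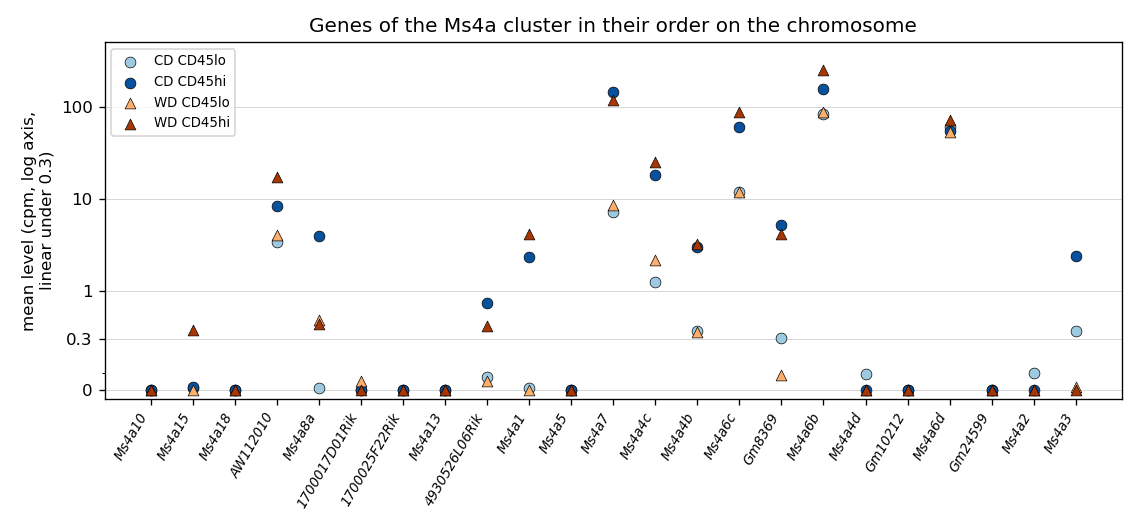
Mean level in cpm of the genes of the Ms4a cluster with a row in the tables, in their order along the chromosome, for the 4 groups (log axis, linear under 0.3 cpm). The highest levels lie in the stretch from Ms4a7 to Ms4a6d, where CD45hi means exceed CD45lo means for Ms4a7, Ms4a4c, Ms4a4b, Ms4a6c and Ms4a6b, and the 4 means of Ms4a6d lie close together.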

How the data were processed

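RNA-seq of sorted brain myeloid cells gave 15 libraries, whose groups were read from the sample labels. The authors trimmed paired-end reads, aligned them with Bowtie2 through RSEM 1.2.12 to mm10 and deposited 1 expected count per gene and library, which is not normalized. The deposited TPM values are RSEM's own, scaled by the authors' run to transcript length and to the library total, and served to compare levels between genes. The FPKM values that the authors also deposited were not used. The release of the annotation, the use of strand in counting and the sequencing platform of each library are not given in the sources used here.

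Expected counts were rounded, the 14967 of 38924 genes reaching 1 cpm in 2 or more libraries were tested, and all libraries were fitted together in 4 groups with TMM normalization in edgeR 4.0.16 (R 4.3.3, estimateDisp and the earlier quasi-likelihood form). CD45hi and CD45lo cells were compared with glmTreat at 1.5-fold, and diets and the interaction with glmQLFTest, each at a Benjamini-Hochberg FDR under 0.05 over all genes tested. SE is the log2 fold change divided by the square root of F, and 95% intervals are 1.96 SE wide on each side. Alternatives were DESeq2 1.42.0, limma-voom (limma 3.58.1), other tests, filters, normalization and fits, replicate blocks, unrounded counts, and fits that left out 1 library each. In simulated counts for 14416 genes with 200 raised 4-fold in CD45hi cells, 161 were recovered on the CD with 2 false calls and 151 on the WD with 3. The 200 were drawn from the more abundant genes only, so recovery was not measured for genes as scarce as *Ms4a4b* and *Ms4a4c*. Over 21 pairs of replicates the chi-square per degree of freedom was at least 20.6, so none was counted as a repeat.

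Named genes are the 8 members, the other Ms4a genes past the filter, partner and MS4A-like genes past the threshold with *Trem2*, the 3 genes most correlated with each member, and the most abundant gene of each marker list. Of the genes this rule gives, 2 are not reported here. Other partners, T cell receptor genes, *Gm8369*, *AW112010*, *Prdm11* and *BE692007* were named after their values or overlaps were seen. The members and lists were chosen with earlier results of these data known. Coordinates, overlaps and 75-base stretches come from GENCODE M21 (mm10), and promoters from RefSeq (GRCm38.p6). Coding sequences and promoters were aligned with Biopython 1.88.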

Additional observations from a re-analysis of the deposited data

Results flagged for a closer look

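Among the 18 sets of 4 libraries (6 members in 3 groups), 1 held a library set apart from the other 3 by Dixon's criterion, and chance sets apart about 1 in 20. This was *Ms4a6d* in CD45lo cells of WD-fed mice, where replicate 1 was at 59.0 cpm and the others at 50.2, 51.4 and 51.6 cpm. Without that library its log2 fold change between CD45hi and CD45lo cells on the WD was 0.48 (edgeR glmTreat FDR = 0.811).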

How the results depend on the processing

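The number of members called stayed within 1.5 times its value in every alternative that was run. It was 2 to 4 between CD45hi and CD45lo cells on the CD, 3 to 4 on the WD and 0 in all alternatives between diets and for the interaction, and leaving out each library in turn gave 3 in each case on the CD and 3 to 4 on the WD. *Ms4a6b* on the CD was called by DESeq2 (DESeq2 FDR = 0.000695) and by glmQLFTest with a later 1.5-fold limit (edgeR FDR = 0.0151). *Ms4a4c* lost its call in limma-voom on both diets, and without replicate 3 or replicate 4 of the WD CD45lo libraries (3.14 to 3.88 over the libraries left out). The cause was not tested. The other changes of sign concerned differences that were never called. *Ms4a4b* between diets was -0.39 by limma-voom and -0.69 with a replicate block in CD45hi cells, 1.33 and 1.06 in CD45lo cells, and -1.72 and -1.75 for the interaction, or -1.41 with a block by file number. *Ms4a6c* between diets in CD45lo cells was -0.00 with no filter on low counts. Over the libraries left out, the log2 fold change of *Ms4a6d* between CD45hi and CD45lo cells on the CD ran from -0.38 to 0.07. Between diets in CD45hi cells *Ms4a4b* ran from -1.46 to 0.57. In CD45lo cells the ranges were -0.75 to 2.10 for *Ms4a4b*, -0.01 to 0.20 for *Ms4a6b*, -0.13 to 0.17 for *Ms4a6c* and -0.47 to 0.57 for *Ms4a7*. For the interaction they were -1.98 to 0.87 for *Ms4a4b*, -0.69 to 0.51 for *Ms4a4c* and -0.87 to 0.17 for *Ms4a7*. Over all genes, 595 and 775 calls between CD45hi and CD45lo cells on the CD and the WD became 1162 and 1335 with the later limit and 1794 and 2296 in DESeq2. The 38 calls between diets in CD45hi cells became 1 with glmTreat, 1030 in DESeq2, 69 with the filter at 4 libraries, 252 in the edgeR 4 form and 0 in a fit of the compared groups alone, the 0 calls in CD45lo cells became 4 in DESeq2, and the 1 call of the interaction became 188 in DESeq2 and 0 in limma-voom and the edgeR 4 form. Leaving out 1 library gave 411 to 701 and 513 to 917 calls between CD45hi and CD45lo cells, 1 to 287 and 0 between diets in CD45hi and CD45lo cells, and 0 to 6 for the interaction. Replicate numbers are shared by the groups, but libraries of the same number did not deviate together (r from -0.02 to 0.07 over genes), so the numbers were not taken to pair the libraries. A replicate block by the titles gave 3 and 4 members called, with 2 calls over all genes between diets in CD45hi cells and 0 for the interaction. A block by the numbers in the file names gave 3 and 4 members called and 353 calls over all genes on the WD, and could not be fitted for the diets. Depth limits *Ms4a4b* most, with 0 to 24 counts in CD45lo libraries.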

Other observations

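2 other transcribed units of the cluster were named after their values were seen. *Gm8369*, a protein-coding gene between *Ms4a6c* and *Ms4a6b*, was at 5.20 ± 6.49 cpm in CD45hi (SD, n = 4) and 0.311 ± 0.477 cpm in CD45lo cells on the CD (SD, n = 4). On the WD it was at 4.16 ± 5.12 cpm (SD, n = 3) and 0.0883 ± 0.0951 cpm (SD, n = 4). Its highest library, at 14.9 cpm, was a CD45hi library of CD-fed mice. It was not called on the CD (log2 fold change 4.03, SE 1.41, edgeR glmTreat FDR = 0.159) or on the WD (log2 fold change 5.46, SE 1.57, edgeR glmTreat FDR = 0.0577). *AW112010*, annotated as a noncoding RNA, lies near the other end of the cluster. Its mean was 8.32 cpm in CD45hi and 3.39 cpm in CD45lo cells on the CD, and 17.3 and 4.04 cpm on the WD. Test results for it are not reported here.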
